A study of Mus musculus with 3 samples.

Results

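Solute carrier genes encode the membrane proteins that move amino acids, sugars, nucleotides, ions and metabolites across the surface of a cell and the membranes of its organelles. Members were taken by symbol, as the genes named Slc followed by a family number and a letter. Only spots that list 1 gene were used. Spots listing several genes were left out, also where they had values on all 3 arrays, as for Slc38a9 and Slc25a37. Of the 76 Slc genes at spots listing 1 gene, 40 had a value on all 3 arrays. These 40 were read from 49 spots, and they stand among 3462 named genes tested in all. By the transporter family in the symbol, 10 carry amino acids, 1 belongs to a sugar family, 4 to the nucleotide sugar family, 1 carries an inorganic ion, 5 carry metal ions, 8 belong to the mitochondrial family Slc25 and 11 move other substrates.

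The arrays were two-colour spotted arrays, each setting RNA of a castrated C57BL/6 mouse with a testosterone pellet against that of its matched placebo mouse, for 3 mouse pairs named T1, T2 and T3. All of the mice had been castrated when 7 weeks old and were 17 weeks old at collection, and the pellets, of 12.5 mg and made to release over 60 days, were given for 4 weeks. Testosterone carried Cy5 on T1 and T3 and Cy3 on T2. The RNA came from pulverised bone and is labelled bone marrow. Values are ratios of testosterone to placebo, read as log2. A positive value was taken to mean higher with testosterone, which the series calls its experimental channel, so the direction is likely and not settled. As deposited, the arrays correlated positively over all spots (Pearson 0.43 for T1 and T2, 0.48 for T1 and T3, 0.73 for T2 and T3). All 7 B lineage markers measured were below 0 on every array, and turning the sign of T2 would put them above 0 on T2 only. The base 2 was chosen by the range that the values span and is not stated. Because only ratios were deposited, no level of a carrier or of a cell type marker could be read, and a lower ratio from fewer cells of a type cannot be told apart from one from less RNA per cell.

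Carriers of one family share a fold and often a substrate class, but not their place in the cell. Exchangers and sodium-coupled carriers at the surface bring in amino acids such as glutamine, proton-linked carriers pass lactate, zinc carriers of the Slc30 family load zinc into organelles or out of the cell, those of the Slc39 family bring it into the cytosol, and Slc25 carriers link the cytosol to the mitochondrial matrix. In bone marrow these genes serve cells that divide and that build heme, membranes and glycoproteins.

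Of the 40 solute carrier genes, 4 fell and 1 rose with testosterone, and 35 did not pass the threshold (adjusted p under 0.05). Slc1a5 and Slc38a1, both carriers of glutamine, Slc44a2, a choline transporter-like protein, and Slc30a5, a zinc carrier of the secretory pathway, were lower. Slc35d2, a nucleotide sugar carrier of the Golgi, was higher. The share past the threshold was 12.5% of the carriers against 4.91% of all genes tested; 10% of the carriers were lower against 3.24% of all genes, and 2.5% were higher against 1.68%. These are counts of 4 and 1, with adjusted p from 0.0409 to 0.0494, so each call lies close to the threshold. The gap between the shares changed with some settings. After median centring 2.5% of carriers passed against 2.89% of all genes, and without T1 22.5% against 18%. It was 15% against 11.1% with a dye term, 17.5% against 14.4% at an adjusted p under 0.10 and 12.5% against 8.95% after centring and scaling. The shares stayed near those reported with robust eBayes (12.5% against 4.82%), every spot of a gene (12.5% against 4.77%) and at least 2 arrays (10.2% against 4.14%). None of the 5 passed without T2 (adjusted p from 0.153 to 0.234), without T3 (0.202 to 0.273) or with the sign of T2 turned. Of all genes tested 1.01% passed without T2, 0.953% without T3 and 0% with the sign of T2 turned. After centring each array on its median Slc35d2 alone of the 5 passed (0.0453, the others from 0.0512 to 0.064).

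**Figure D1:**
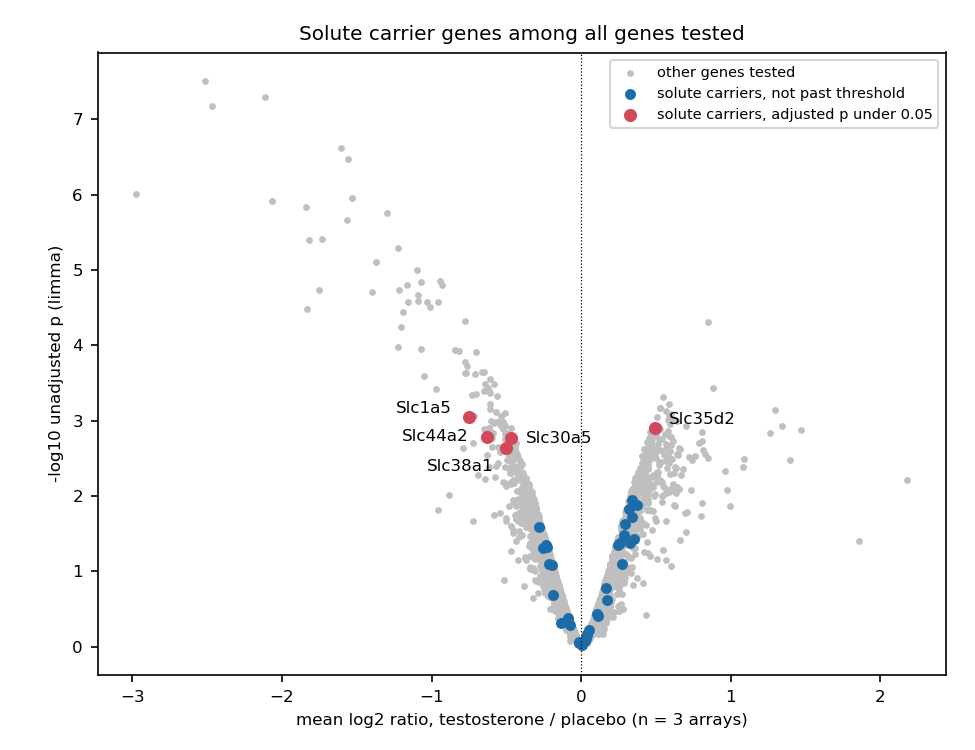
Mean log2 ratio of each gene over the 3 arrays (horizontal axis) against the −log10 of its unadjusted limma p (vertical axis), with solute carriers in colour over the other genes tested in grey. The 5 carriers past the threshold lie between -0.75 and 0.49 on the horizontal axis, and the lowest grey point is at -2.98.

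Promoter windows of RefSeq (assembly GRCm38.p6) were at hand for 30 of the 40 genes and for 2 of the 5 that changed, Slc30a5 and Slc44a2. They are shown because both genes had passed the threshold and had a window. Both genes were lower on every array. Each line gives the 250 bases before a start site, 5′ to 3′ on the strand of the gene, with matches to any of 4 motifs in capitals. Slc30a5 lies on the minus strand (chr13:100833428-100833677), and Slc44a2, on the plus strand, has a pair of start sites (chr9:21320469-21320718 and chr9:21337578-21337827).
Slc30a5: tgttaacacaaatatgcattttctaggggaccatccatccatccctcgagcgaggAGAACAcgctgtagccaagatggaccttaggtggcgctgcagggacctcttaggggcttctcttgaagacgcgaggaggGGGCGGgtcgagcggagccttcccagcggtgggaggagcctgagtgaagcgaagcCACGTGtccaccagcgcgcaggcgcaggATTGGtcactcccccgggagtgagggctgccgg
Slc44a2, upstream start: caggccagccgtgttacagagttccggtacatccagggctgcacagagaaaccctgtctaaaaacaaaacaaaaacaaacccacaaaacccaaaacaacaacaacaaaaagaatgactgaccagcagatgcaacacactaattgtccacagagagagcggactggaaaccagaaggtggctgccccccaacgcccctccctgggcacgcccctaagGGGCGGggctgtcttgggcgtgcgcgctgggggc
Slc44a2, downstream start: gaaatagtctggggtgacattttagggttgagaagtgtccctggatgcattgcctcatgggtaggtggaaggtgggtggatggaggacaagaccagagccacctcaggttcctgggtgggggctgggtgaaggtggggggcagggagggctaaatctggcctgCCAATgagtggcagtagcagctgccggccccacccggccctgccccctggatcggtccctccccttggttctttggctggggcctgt

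The motifs, searched on both strands, were the androgen receptor half-site AGAACA, the E-box CACGTG, the GC box GGGCGG and the CCAAT box CCAAT, and their matches do not overlap in these windows. The Slc30a5 window held AGAACA at -195 to -190 from the start site, CACGTG at -61 to -56, GGGCGG at -116 to -111 and the CCAAT box on the other strand at -33 to -29. The Slc44a2 windows held GGGCGG at -34 to -29 of the upstream start and CCAAT at -87 to -83 of the downstream one. Among 32851 windows of all genes, AGAACA or its reverse complement was in 16.1%, CACGTG in 6.02%, GGGCGG in 32.7% and CCAAT in 33.8%. Among the 39 windows of the 30 carriers the shares were 17.9%, 20.5%, 61.5% and 35.9%. The windows of all genes were not limited to genes with values on all arrays, as those of the carriers were. The gaps between these shares were not tested and cannot be read as a trait of carriers. A match is a stretch of letters and was not tested as a binding site, and the spots do not tell the start sites of Slc44a2 apart.

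Slc1a5 and Slc38a1 were the amino acid carriers that fell. Slc1a5, a sodium-dependent exchanger of neutral amino acids and a main route of glutamine uptake, read -0.52 on T1, -1.18 on T2 and -0.55 on T3. All 3 pairs were below 0, and T2 was the lowest. Its mean of -0.75 ± 0.37 (SD, n = 3) was the lowest of the 40 carriers as deposited and 1.68-fold lower with testosterone (95% interval -1.09 to -0.42, adjusted p = 0.0409). Without T2 the mean was -0.54, and with the sign of T2 turned it was 0.033.

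Slc38a1, a sodium-coupled carrier of glutamine and alanine, read -0.53 on T1, -0.69 on T2 and -0.28 on T3. It was below 0 in every pair, with a mean of -0.50 ± 0.20, 1.41-fold lower (95% interval -0.76 to -0.24, adjusted p = 0.0494). With the sign of T2 turned the mean was -0.042. Its relative Slc38a5, which also carries glutamine along with histidine and serine, stood on the other side, at 0.22, 0.46 and 0.28 on T1, T2 and T3. The mean of Slc38a5 was 0.32 ± 0.13 (95% interval 0.083 to 0.56, adjusted p = 0.101), above 0 in every pair and not past the threshold, and it passed after centring and scaling (adjusted p = 0.0492). The intervals of Slc38a1 and Slc38a5 do not overlap, and the difference between these genes was not tested.

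The other amino acid carriers were near or above 0. Slc7a5, the light chain that brings in large neutral amino acids such as leucine, had -0.064, -0.0025 and 0.028 on T1, T2 and T3, and Slc3a2, the heavy chain with which it pairs, had -0.15, -0.003 and 0.18. Their means were -0.013 ± 0.047 and 0.0088 ± 0.17, with 95% intervals of -0.24 to 0.21 and -0.24 to 0.26. Slc7a1, the carrier of arginine and lysine, had -0.017 ± 0.053, and Slc36a1, a proton-coupled carrier of small amino acids found on lysosomes, had 0.026 ± 0.25. After median centring Slc7a5 and Slc7a1 stood at 0.057 and 0.052.

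Slc6a20a, a carrier of proline, read 0.23, 0.47 and 0.18 on T1, T2 and T3, with a mean of 0.30 ± 0.15 (adjusted p = 0.123). Slc6a9, the glycine carrier whose substrate enters heme synthesis, read 0.090, 0.43 and 0.26, with a mean of 0.26 ± 0.17 (adjusted p = 0.163). Both were above 0 in each pair and did not pass. Slc43a1, which carries leucine and other branched-chain amino acids, had 0.17 ± 0.18. In all, 2 of 10 amino acid carriers fell, 0 rose and 8 did not pass, and their median was 0.017 against -0.071 over all genes tested.

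**Figure D2:**
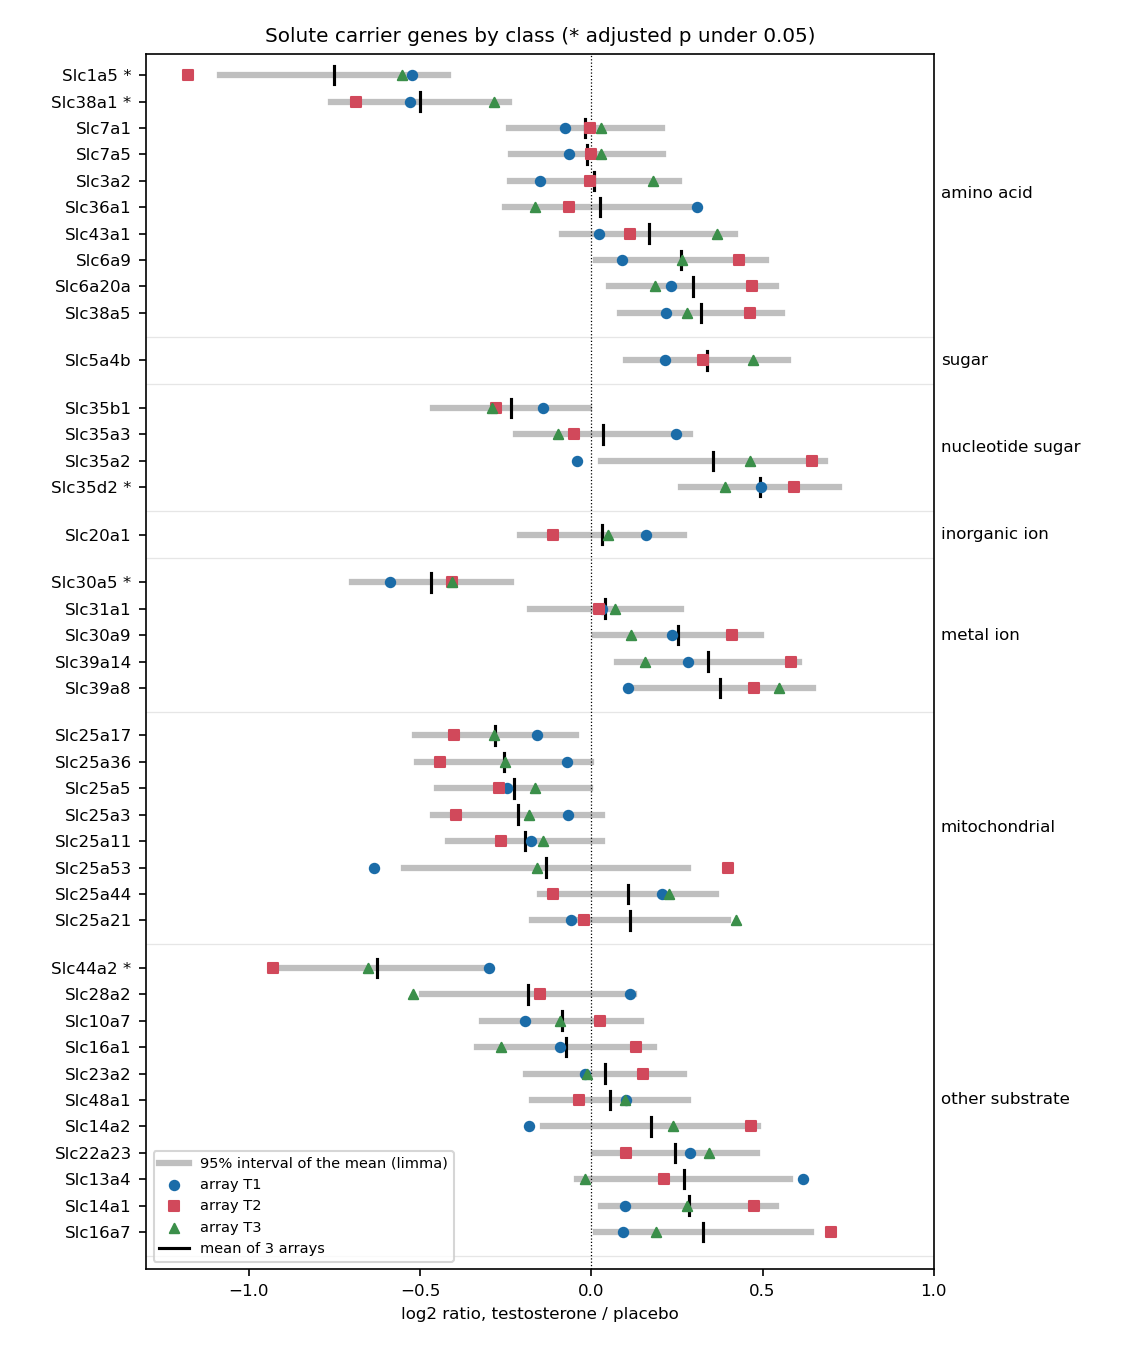
Log2 ratios of testosterone to placebo (horizontal axis) for each of the 40 solute carrier genes, grouped by class, with 1 point per array, a black bar at the mean and a grey bar for the 95% interval of the limma fit. Slc1a5, Slc38a1, Slc30a5 and Slc44a2 have all 3 points below 0 and Slc35d2 all 3 above, and Slc25a53 has the widest spread, from -0.63 on T1 to 0.40 on T2.

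Sugar carriers proper were thinly measured. Slc5a4b, of the sodium and glucose cotransporter family, was the single one with a value on all arrays at a spot listing 1 gene. It read 0.21 on T1, 0.33 on T2 and 0.47 on T3. Its mean of 0.34 ± 0.13 did not pass (95% interval 0.10 to 0.58, adjusted p = 0.0899), although every pair was above 0, and it passed when T1 was left out (mean 0.40, adjusted p = 0.0398). A spot listing Slc5a1, of the same family, together with other genes was left out. It read -0.41, -0.042 and -0.23 on T1, T2 and T3. The glucose carriers Slc2a1 and Slc2a3 were not analysed here.

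The Slc35 family supplies the Golgi and endoplasmic reticulum with the nucleotide sugars from which glycoproteins and proteoglycans are built. Slc35d2 read 0.49 on T1, 0.59 on T2 and 0.39 on T3, so the pairs lay close together and all above 0. Its mean of 0.49 ± 0.10 was the highest of the 40 carriers as deposited, 1.41-fold higher with testosterone (95% interval 0.26 to 0.72, adjusted p = 0.0450), and it kept its call after median centring and without T1 (adjusted p = 0.011). With the sign of T2 turned the mean was 0.097, and 6 other carriers lay above it, led by Slc25a44 (0.18) and Slc22a23 (0.18).

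Slc35a2, the UDP-galactose carrier, differed between pairs, with -0.043 on T1 against 0.64 on T2 and 0.46 on T3. The mean of 0.35 ± 0.36 did not pass (adjusted p = 0.157), and without T1 it was 0.55 and passed (adjusted p = 0.00407). Slc35b1, a nucleotide carrier of the endoplasmic reticulum, was below 0 in each pair, with -0.14, -0.28 and -0.29 and a mean of -0.24 ± 0.082 (adjusted p = 0.168). Slc35a3, a UDP-N-acetylglucosamine carrier, had 0.25, -0.050 and -0.097, a mean of 0.034 ± 0.19. Of the 4 members 1 rose, 0 fell and 3 did not pass, and the median was 0.19.

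Among metal ion carriers the zinc genes parted in direction. Slc30a5, which loads zinc into vesicles of the secretory pathway, read -0.59 on T1, -0.41 on T2 and -0.41 on T3. These are the most alike readings among the 4 carriers that fell, with a mean of -0.47 ± 0.10, 1.38-fold lower (95% interval -0.70 to -0.24, adjusted p = 0.0467). With the sign of T2 turned the mean was -0.20, and after centring and scaling adjusted p was 0.0531. The other metal carriers lay above 0 on all 3 arrays, as did 18.1% of all genes tested, and none of them passed.

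Slc39a8, an importer of zinc and manganese, had 0.11, 0.47 and 0.55 on T1, T2 and T3, and Slc39a14, an importer of zinc, iron and manganese, had 0.28, 0.58 and 0.16. Their means were 0.38 ± 0.24 (adjusted p = 0.0965) and 0.34 ± 0.22 (adjusted p = 0.114). Slc39a8 passed without T1 (mean 0.51, adjusted p = 0.00773). Slc30a9, of the same family as Slc30a5, had 0.23, 0.41 and 0.12, a mean of 0.25 ± 0.15 (adjusted p = 0.164), and its 95% interval of 0.011 to 0.50 does not reach that of Slc30a5, though the difference between these genes was not tested. The copper importer Slc31a1 was flat, at 0.030, 0.023 and 0.070, with a 95% interval of -0.18 to 0.26. Thus 1 of 5 metal carriers fell, 0 rose and 4 did not pass, and the median of 0.25 was 0.30 to 0.32 under both scalings of the arrays and -0.020 with the sign of T2 turned.

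The inorganic ions were represented by Slc20a1, a sodium-coupled phosphate carrier, whose readings of 0.16, -0.11 and 0.050 fell on both sides of 0 (mean 0.032 ± 0.14, adjusted p = 0.862). Another 7 genes of inorganic ion families were on the array at spots listing 1 gene, without a value on all 3 arrays.

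The Slc25 family had 6 of 8 means below 0, against 2162 of the 3462 genes tested, and no member passed the threshold. Slc25a5, an ADP/ATP exchanger of the inner membrane, read -0.25, -0.27 and -0.16 on T1, T2 and T3, a mean of -0.23 ± 0.055 (95% interval -0.45 to -0.0026, adjusted p = 0.175). Slc25a3, which brings phosphate to the ATP synthase, had -0.069, -0.39 and -0.18, and Slc25a11, the oxoglutarate and malate exchanger, -0.18, -0.26 and -0.14. Their means were -0.22 ± 0.16 and -0.19 ± 0.063.

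Slc25a36, a carrier of pyrimidine nucleotides, had -0.072, -0.44 and -0.25, with a mean of -0.26 ± 0.19. Slc25a17, which belongs to the family but resides in peroxisomes, had -0.16, -0.40 and -0.28, a mean of -0.28 ± 0.12 (adjusted p = 0.128), or -0.014 with the sign of T2 turned. These 5 genes were below 0 on every array, as were 33.9% of all genes tested. Slc25a53, an orphan carrier, went from -0.63 on T1 to 0.40 on T2, the widest range of the 40 carriers, and the sign of its mean of -0.13 ± 0.52 turned without T1 (0.12).

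The remaining members were above 0 on average. Slc25a44, a carrier of branched-chain amino acids, had 0.11 ± 0.19, and Slc25a21, an oxodicarboxylate carrier, had 0.11 ± 0.27. The median of the Slc25 family was -0.20, against -0.071 over all genes tested. By array it read -0.11 (T1), -0.27 (T2) and -0.16 (T3), and it stood at -0.13 under both scalings and 0.013 with the sign of T2 turned.

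**Figure D3:**
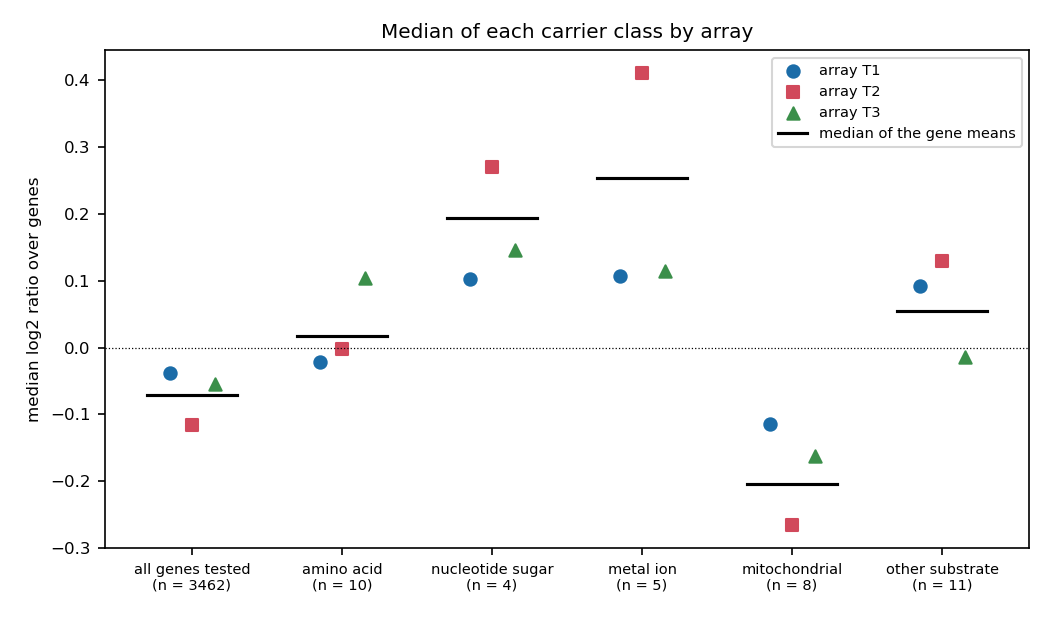
Median log2 ratio over the genes of each class (vertical axis) on each array, with a bar at the median of the gene means; classes with 1 member are left out. The mitochondrial family lies below 0 on each array, from -0.27 to -0.11, and the metal ion class above 0, from 0.11 to 0.41, while all genes tested lie between -0.12 and -0.038.

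Carriers of other substrates held the fourth gene that fell. Slc44a2 was measured at 2 spots, which gave -0.23, -0.79 and -0.67 on T1, T2 and T3 at one and -0.37, -1.08 and -0.63 at the other. Both spots were below 0 in each pair and highest on T1. When spots were fitted singly both passed (adjusted p = 0.0441 and 0.0392), and their average was -0.63 ± 0.32, 1.54-fold lower with testosterone (95% interval -0.94 to -0.32, adjusted p = 0.0467). With the sign of T2 turned the mean was -0.0063.

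Slc16a1 and Slc16a7, proton-linked carriers of lactate and pyruvate, did not pass. Slc16a1 had -0.091, 0.13 and -0.26 (mean -0.075 ± 0.20, adjusted p = 0.685), with pairs on both sides of 0. Slc16a7 had 0.092, 0.70 and 0.19 (mean 0.33 ± 0.33, adjusted p = 0.164). It passed without T1 (mean 0.45, adjusted p = 0.0278) and with a dye term (mean 0.42, adjusted p = 0.0488).

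Slc14a1, the urea carrier that bears the human Kidd blood group, had 0.099, 0.47 and 0.28 on T1, T2 and T3 (mean 0.28 ± 0.19, adjusted p = 0.147). Its kidney relative Slc14a2 had -0.18, 0.47 and 0.24 (mean 0.17 ± 0.33). Slc22a23, an orphan of the organic ion family, had 0.29, 0.10 and 0.35 (mean 0.25 ± 0.13, adjusted p = 0.168). Slc14a1 and Slc22a23 were above 0 in every pair and did not pass, and Slc14a2 was below 0 on T1.

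The last of the class were Slc13a4, a sulfate carrier, at 0.27 ± 0.32, Slc48a1, a heme carrier, at 0.055 ± 0.078, Slc23a2, a vitamin C carrier, at 0.039 ± 0.097, Slc10a7 at -0.087 ± 0.11 and Slc28a2, a nucleoside carrier, at -0.19 ± 0.32. Slc28a2 ran from 0.11 on T1 to -0.52 on T3. Of the 11 genes in the class, 1 fell, 0 rose and 10 did not pass, and their median was 0.055.

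Across all 40 carriers the ratios were small. The means ran from -0.75 to 0.49. The values of a gene on 1 array, averaged over its spots, ran from -1.18 to 0.70, both extremes on T2. The standard deviations over the 40 carriers were 0.27, 0.43 and 0.30 for T1, T2 and T3, against 0.31, 0.44 and 0.31 over all genes tested. Of the 40 means 24, or 60%, were above 0, against 37.6% over all genes tested, and 13 carriers were above 0 on all arrays and 10 below 0 on all arrays, or 32.5% and 25% against 18.1% and 33.9%. At an unadjusted p under 0.05 there were 12 higher and 8 lower carriers, or 30% and 20% against 12% and 16.1% of all genes. The median 95% interval of a carrier reached 0.25 to either side of its mean.

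**Figure D4:**
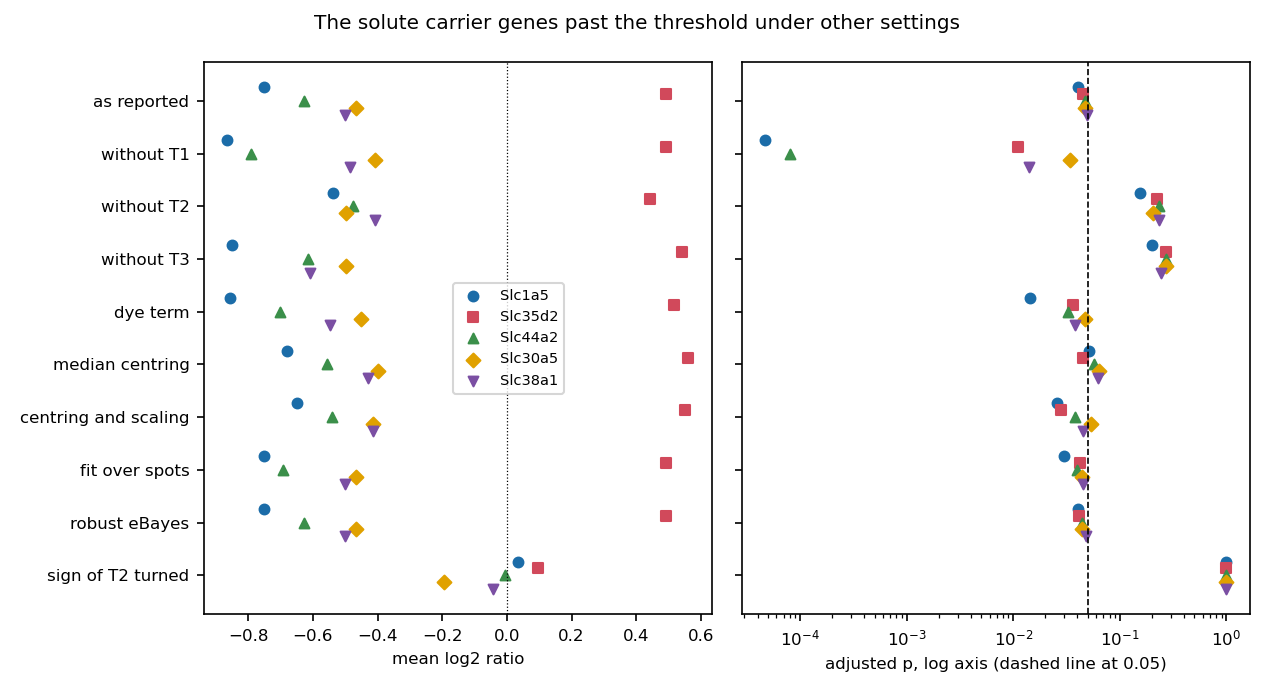
Mean log2 ratio (left) and adjusted p on a log axis (right) of the 5 carriers past the threshold, as reported and under other settings, with a dashed line at 0.05. All adjusted p values lie right of the line without T2, without T3 and with the sign of T2 turned, and all means but that of Slc1a5 keep their side of 0 in each setting plotted.

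Genes with more than 1 spot show how far the spots of a gene can differ within an array. Among the 9 carriers with 2 spots, the largest gap between spots on one array was 0.46 for Slc16a7 on T2, followed by 0.42 for Slc25a5 and 0.38 for Slc35a3, also on T2. The smallest of the largest gaps was 0.13, for Slc7a1. Slc7a5 alone had spots that share a sequence record, and these differed by at most 0.19. In the other genes the spots do not share a record, so their gaps can hold differences between sequences besides error. The other 31 carriers rest on 1 spot each, among them Slc1a5, Slc38a1, Slc30a5 and Slc35d2.

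Proteins that work beside these carriers were also looked up. Bsg, the chaperone that takes the lactate carriers to the surface, had -0.31, -0.18 and -0.11 (mean -0.20 ± 0.10, adjusted p = 0.228), and the related chaperone Emb had 0.45, -0.51 and -0.15. Neither passed. Of 25 solute carriers under other names 4 were measured and 0 passed, including the mitochondrial pyruvate carrier subunit Mpc1 (0.0018 ± 0.16) and Mtch2 (0.026 ± 0.21). Of 16 ABC transporters 2 were measured, the lipid exporters Abca1 (-0.015 ± 0.17) and Abcg1 (-0.068 ± 0.31), and of 5 calcium pumps Atp2a2 (-0.097 ± 0.21); none passed.

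Markers of other cell types that the samples can hold were read on the same arrays. Of 15 B lineage markers listed 7 were measured, and all 7 were lower with testosterone, with means from -2.98 to -1.56 and medians of -2.40, -2.34 and -1.96 on T1, T2 and T3. The 4 carriers that fell share this direction because they were picked as lower, so the match was fixed beforehand and links them to no cell type. Means below 0 were also found for 5 of 5 skeletal muscle, 4 of 4 osteoblast and matrix and 3 of 4 adipocyte markers. Over all genes tested, 2162 of 3462 means were below 0. Of 16 erythroid markers 7 were measured and 0 passed, with a median of 0.28 (0.12, 0.31 and 0.32 by array). Their means were not of one direction: 5 were above 0 and 2 below, Tfrc (-0.14) and Ank1 (-0.096). Of 10 skeletal muscle markers 5 were measured and 0 passed, with medians of -0.032, -0.82 and -0.45, and of 13 neutrophil markers 4 were measured and 0 passed, with medians of 0.64, 0.15 and -0.11. Of 10 monocyte and macrophage markers 6 were measured (0 passed, median 0.19), of 6 osteoclast markers 2 (0 passed, median 0.25), of 8 osteoblast and matrix markers 4 (1 lower, median -0.41) and of 7 adipocyte markers 4 (1 lower, median -0.30). The part of these cell types in the carriers' ratios was not tested.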

How the data were processed

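RNA of 3 matched pairs of castrated mice was compared on 3 two-colour arrays. The authors deposited 1 signed log ratio per spot and array, read here as log2; base, scanner, background correction and normalization were not given in the sources used here. The values were used as deposited. The number of arrays limits the precision. Of 11552 spots, 8050 list 1 gene, 672 several and 2830 none. Names came from spots with 1 gene, updated through Entrez IDs to RefSeq (7880 spots matched); 66 control or non-mouse spots were left out. Each gene is the average of its spots that had values on all arrays. limma 3.58.1 in R 4.3.3 (lmFit, eBayes) tested each mean against 0, two-sided. Benjamini-Hochberg adjustment ran over 3462 genes with a threshold of 0.05. The procedure was tested on simulated independent values with changes larger than the means of the called carriers, so changes of their size were not covered. Class medians are descriptions. A rule selected 26 carriers to name (those past the threshold, the 4 of smallest p per class, the extremes and a fixed list); the others are named to account for every member. Members, lists and rules were chosen with earlier results of these data known. Alternatives were the sign of T2 turned, each array left out, a dye term, centring, centring with scaling, at least 2 arrays, every spot of a gene, single spots, robust eBayes and a threshold of 0.10. Keeping names without a RefSeq match was added after seeing the data.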

Additional observations from a re-analysis of the deposited data

How the results depend on the processing

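The number of arrays sets the limit here, and T2 is the single array of opposite dyes. Turning the sign of T2 sets it against T1 and T3, with which it correlated positively as deposited. The count of 5 changed carriers was 0 with the sign of T2 turned (limma; 1 at an unadjusted p under 0.05, and 20 as reported), 1 after median centring (Slc35d2), and between 0 and 9 when an array was left out: 9 without T1 (5 higher, 4 lower), 0 without T2 (8 at an unadjusted p under 0.05) and 0 without T3 (7). It was 5 or 6 with a dye term, with centring and scaling, with at least 2 arrays, with every spot, with single spots, with robust eBayes and with unmatched names kept, and 7 (3 higher, 4 lower) at a threshold of 0.10. After centring and scaling 2 carriers were higher and 3 lower, and with a dye term 2 higher and 4 lower, against 1 and 4 as reported. Centring raises the mean of every gene by 0.070, and the readings on T2 by 0.12.

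Over all genes the 170 changed genes became 0 with the sign of T2 turned (19 at an unadjusted p under 0.05), 385 with a dye term, 100 after median centring (42% higher), 310 after centring and scaling (65.8% higher), 498 at a threshold of 0.10 and 33 to 623 when an array was left out, against 34.1% higher as reported. The amino acid median of 0.017 was 0.087 after median centring and 0.088 after centring and scaling. With the sign of T2 turned the median was -0.020 for metal ions, 0.013 for the Slc25 family, 0.0083 for nucleotide sugars and -0.062 for other substrates. The nucleotide sugar median was -0.020 with at least 2 arrays and 0.072 over single spots, and that of other substrates 0.13 after centring and scaling.

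Of the 40 means, 12 changed sign with T2 turned: Slc1a5 (0.033), Slc25a3 (0.047), Slc25a36 (0.040), Slc14a1 (-0.032), Slc14a2 (-0.14), Slc16a7 (-0.14), Slc23a2 (-0.062), Slc30a9 (-0.020), Slc35a2 (-0.075), Slc39a14 (-0.049), Slc6a20a (-0.018) and Slc6a9 (-0.026). With 1 array left out the sign changed for 10 means. Without T1 these were Slc20a1 (range over the 3 omissions -0.032 to 0.10), Slc25a53 (-0.40 to 0.12), Slc35a3 (-0.074 to 0.099), Slc36a1 (-0.12 to 0.12), Slc7a1 (-0.040 to 0.012) and Slc7a5 (-0.033 to 0.013), without T2 Slc23a2 (-0.017 to 0.069), and without T3 Slc16a1 (-0.18 to 0.019), Slc25a21 (-0.041 to 0.20) and Slc3a2 (-0.077 to 0.089). A dye term gave -0.0041 for Slc20a1 and 0.00075 for Slc25a53, median centring 0.052 for Slc7a1 and 0.057 for Slc7a5, and centring with scaling 0.048 and 0.053. Apart from Slc1a5 none of these had passed the threshold, and the cause of the changes was not tested. Each ratio already is 1 mouse pair, so testing the mean ratio against 0 uses the pairing, and with 1 group no further pairing was modelled.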

Other observations

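A further 36 genes whose symbol follows the rule were at spots listing 1 gene, none of which had a value on all 3 arrays. Among them was Slc7a6os, which is not itself a carrier (-0.175 on T1 and 0.134 on T3). Of the 36, 14 had no value at these spots, 14 had a value on 1 array at their best spot and 8 on 2 arrays. Slc66a1, a lysosomal carrier of cationic amino acids, read 0.32 on T1 and 0.38 on T2. Slc35c1, the GDP-fucose carrier, read -0.13 on T1 and -0.33 on T3, and Slc19a1, the reduced folate carrier, -0.11 on T1 and 0.14 on T3. Slc12a2, a cotransporter of sodium, potassium and chloride, had -0.050 on T1 and -0.046 on T2 at its better spot, and the phosphate carrier Slc20a2 had 0.084 and -0.30. The mitochondrial glutamate carrier Slc25a22 had 0.21 on T1 and -0.12 on T3, and the ADP/ATP exchanger Slc25a4 had -0.045 on T1 only. These genes entered no test, and the 14 without a value include Slc7a11, the cystine and glutamate exchanger, and Slc2a2, a glucose carrier.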
